A study of Mus musculus with 30 samples.

Results

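An alternative 3' splice junction joins the usual donor of an intron to a different acceptor, so that the next exon begins earlier or later than in the competing form. RNA sequencing of mouse CALM/AF10 acute myeloid leukemia cells and of normal granulocyte-macrophage progenitors (GMP) yielded 4 deposited tables of junctions called after treatment with RG3039, a small molecule inhibitor of the cap-scavenging enzyme Dcps. All rows marked as using an alternative 3' splice site were taken, which gave 288 rows for 212 distinct introns, of 1866 rows and 1309 introns listed in all. They made up 77 of 486 rows (15.8%) in CALM/AF10 cells at 6 h, 123 of 689 (17.9%) at 10 h, 32 of 291 (11%) in GMP at 6 h and 56 of 400 (14%) at 10 h. The members were chosen by the authors' own q-values and ratios, so their PSI (percent spliced in, the share of reads at a splice site that use the junction) is given as a description and is not tested. The members just inside the threshold had q-values of 0.0472, 0.0421, 0.0494 and 0.0494 in the authors' deposited tables, in the order above, and rows outside it are not listed.

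The cells compared were CALM/AF10 leukemia cells and GMP of C57BL/6 mice, each untreated (0 h) and after 6 h and 10 h in RG3039, at 1 µM per the file headers, with 3 samples a group. No untreated sample was taken at 6 h or 10 h, so the drug and time in culture cannot be told apart. A second set held 4 untreated AML lines, CALM/AF10 #1 and #2 and MLL/AF9 #1 and #2, with 3 samples each. Nothing in the labels ties the 3 samples to cultures of their own, and p-values then measure a spread that may be technical.

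In the time course all 10 GMP and early myeloid markers averaged at least 1 TPM (a transcript's abundance scaled by length and library) in both cell types, and their summed level was 6772 to 7707 TPM in CALM/AF10 samples and 11070 to 21980 TPM in GMP. The 5 genes of the Hoxa and Meis1 program summed to 339 to 395 TPM in CALM/AF10 samples and 50.8 to 66.5 TPM in GMP. Mature neutrophil markers summed to 39850 to 46340 TPM in CALM/AF10 samples and 6909 to 9009 TPM in GMP, where the early myeloid sum ran from 21040 to 21980 TPM at 0 h and from 11070 to 11680 TPM at 10 h. Red cell markers reached at most 1.2 TPM in CALM/AF10 samples and 18.1 TPM in GMP, and B cell markers at most 0.978 and 23.1 TPM. T and NK cell markers summed to 3.7 to 7.45 TPM in CALM/AF10 samples and 8.9 to 18.4 TPM in GMP, stroma and endothelium markers to 21 to 26.2 and 20.3 to 30.7 TPM, and megakaryocyte markers to 152 to 222 and 128 to 247 TPM. In GMP the megakaryocyte sum was 193 to 247 TPM at 0 h, 131 to 146 at 6 h and 128 to 149 at 10 h, and the B cell sum 20.8 to 23.1, 17.2 to 18.7 and 12.2 to 14.2 TPM, so both were lower in every treated GMP sample. The part of these other cells in the junctions and in the gene changes of GMP was not tested. TPM is scaled to the same total in each sample, so the depth behind the values is unknown, and in bulk RNA fewer cells of a type and less RNA per cell cannot be told apart.

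In a pre-mRNA the acceptor is chosen when SF1, U2AF and then the U2 snRNP with the SF3A and SF3B complexes bind the branch point, the polypyrimidine tract and the closing AG of the intron. The nuclear cap-binding complex promotes removal of the cap-proximal intron, and Dcps hydrolyses the capped fragment that remains after an mRNA has been degraded from its 3' end. When a different acceptor shifts the reading frame or joins a cryptic exon, a premature stop codon can send the mRNA to nonsense-mediated decay, or the cryptic exon can end the transcript early.

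The sequences that form at the junctions listed in both cell types and at the largest PSI differences show what is exchanged. In each line the lower-case bases are the end of the donor exon and the capitals are the first 18 bases of the exon joined to it, first by the alternative and then by the competing acceptor, read 5' to 3' on the gene's strand from GENCODE M21 transcripts of build GRCm38. In Zbtb18 and Rps6ka3 the donor exon stays and a different exon follows.
Zbtb18 alternative: gggccgctccgtAACCTCCGAGGGTCCGCG
Zbtb18 competing: gggccgctccgtGTTATGAAGACAGTATGG
Rps6ka3 alternative: gacagcgcggagGATTATATCTTTATCCTT
Rps6ka3 competing: gacagcgcggagAATGGACAGCAAATTATG
In Cmtm7, Mthfd2l and Iqsec2 the alternative exon is also a different one, and the authors' tables predict decay for all 3.
Cmtm7 alternative: gtggcgcagatgGGATACAGATTTCTGGTT
Cmtm7 competing: gtggcgcagatgGTCACCCTGCTGATTGCC
Mthfd2l alternative: cagcggccggagGGCCAGCAGAGAGAAGAG
Mthfd2l competing: cagcggccggagACACGAAGCCGTTATCAT
Iqsec2 alternative: gaggagcagcagGGAAGAGGAGGAGGAGGA
Iqsec2 competing: gaggagcagcagTGTGGAGGGTGATGCCCC
In Mrpl33 the stop codon TAA begins 1 base before the junction, so the join itself completes it. Tmem80 and Ddx39b are shown because both cell types list them at 10 h.
Mrpl33 alternative: ccgctgtctcttAACTATCCTGGTGAAACT
Mrpl33 competing: ccgctgtctcttTTGCCAAGAGCAAGTCAA
Tmem80 alternative: ccgtgcggccagGGAGAGGCTCCATCAAGG
Tmem80 competing: ccgtgcggccagTGTGTGTGTATGGAGGGG
Ddx39b alternative: cgcagtgcttagCTCTTCTGTCGGAAACTG
Ddx39b competing: cgcagtgcttagAGAACGATGTGGACAATG

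As alternative 3' introns, 8 were listed in both cell types. They made up 5.44% of the 147 distinct CALM/AF10 introns and 11% of the 73 distinct GMP introns. Matching by gene symbol gave 11. An intron that a cell type listed only under another class is not counted. The overlap of all listed junctions was not computed, so these shares have no background to be set against. Zbtb18 encodes a zinc finger transcriptional repressor, and its alternative intron (chr1:177442596-177443223, plus strand, GRCm38) ends at an acceptor 3865 bases nearer the donor than the competing one. The authors' mean PSI of this junction was 19% at 0 h, 72% at 6 h and 71% at 10 h in CALM/AF10 cells, and 15%, 59% and 47% in GMP. The log2 ratio of the PSI odds was 3.43 and 3.37 in CALM/AF10 cells and 2.94 and 2.23 in GMP, per the authors' deposited tables. The junction was high in both treated groups of both cell types, and in GMP the value at 10 h lay below that at 6 h.

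Rps6ka3, which encodes the growth factor-activated kinase RSK2, used the intron chrX:159256189-159278109 on the plus strand, with its acceptor 7156 bases upstream of the competing one. Its mean PSI was 24%, 61% and 65% at 0, 6 and 10 h in CALM/AF10 cells, and 6%, 48% and 53% in GMP. Read through the printed exon, the frame meets a stop codon 24 bases after the junction, in an exon that is not the last. Pak2, a kinase activated by Rac and Cdc42, had 0% at 0 h and 5% and 6% after treatment in CALM/AF10 cells, and 0%, 4% and 2% in GMP, at chr16:32052701-32079087 on the minus strand. Rps6ka3 thus became a large share of the reads in both cell types, whereas Pak2 stayed a minor form.

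The other shared introns were listed in GMP at 10 h and not at 6 h. Tbc1d2b, of the TBC family of Rab GTPase-activating proteins, had a mean PSI of 3% at 0 h and 34% and 43% after treatment in CALM/AF10 cells, and 1% and 22% at 0 h and 10 h in GMP (chr9:90238461-90241009, minus strand). Its acceptor lies 9359 bases upstream of the competing one and its junction is not in the M21 annotation. Cmtm7, a membrane protein of the MARVEL family, had 10%, 20% and 28% in CALM/AF10 cells and 8% and 17% in GMP (chr9:114771211-114781667, minus strand). Its frame meets a stop codon 54 bases after the junction, in the last exon. At 6 h the GMP table listed the same Cmtm7 intron under another class with 71% and 89%. That row names a competing junction with the same acceptor, while the 10 h row also names one with the same donor.

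Mrpl33, a protein of the mitochondrial ribosome, moved within a low range, from 2% to 4% in CALM/AF10 cells and from 3% to 7% in GMP at 10 h (chr5:31614023-31616380, plus strand). Tmem80, which encodes a transmembrane protein, had 31% and 60% in CALM/AF10 cells and 24% and 61% in GMP (chr7:141328267-141332909, plus strand), and its acceptor lies 1492 bases downstream of the competing one. Ddx39b, the RNA helicase UAP56 that joins U2AF at the acceptor, used a known junction 134 bases upstream of the competing one. Its mean PSI was 91% and 95% in CALM/AF10 cells and 87% and 94% in GMP (chr17:35241853-35243112, plus strand), so the listed form was already the main one before treatment.

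**Figure D1:**
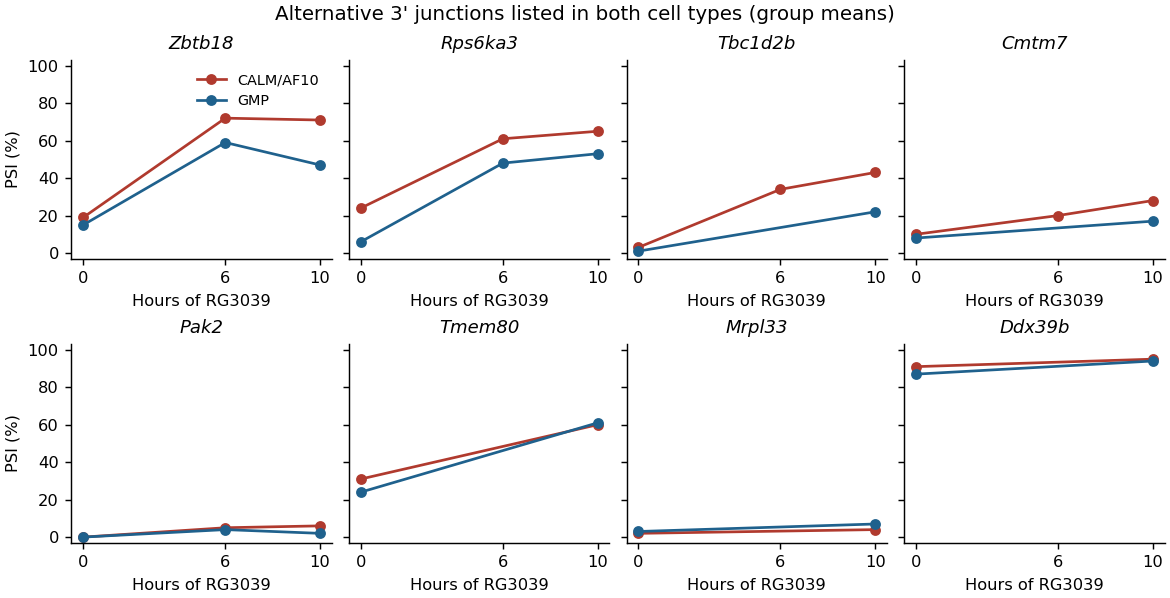
Mean PSI in percent, as deposited by the authors, of the 8 junctions listed in both cell types at 0, 6 and 10 h; times at which a table does not list the junction have no point. Zbtb18 and Rps6ka3 run from 24% or less at 0 h to between 47% and 72% after treatment, while Pak2 and Mrpl33 stay at 7% or less.

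CALM/AF10 cells listed mostly junctions that were rare at 0 h, whereas the GMP tables held minor forms at or near zero beside forms that were already common. In CALM/AF10 cells the median PSI was 4% at 0 h and 22% after treatment at 6 h, and 2% and 19% at 10 h. In GMP it was 15.5% and 42.5% at 6 h and 23% and 51.5% at 10 h. The median difference per junction was 12 and 11 percentage points in CALM/AF10 cells and 3.5 and 6 in GMP, where 8 of the 32 junctions at 6 h and 11 of the 56 at 10 h were at 0% both before and after treatment when rounded. In CALM/AF10 cells 1 and 7 junctions were. The other listed junctions of the same tables had median differences of 11, 10, 18 and 15 points, so the alternative 3' junctions of GMP lay below their table and those of CALM/AF10 cells close to it. The authors' mean raw count after treatment, which is the evidence behind a PSI, had medians of 44 and 39 in CALM/AF10 cells and 75 and 106.5 in GMP, and 19, 35, 5 and 8 junctions had a mean count under 20.

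**Figure D2:**
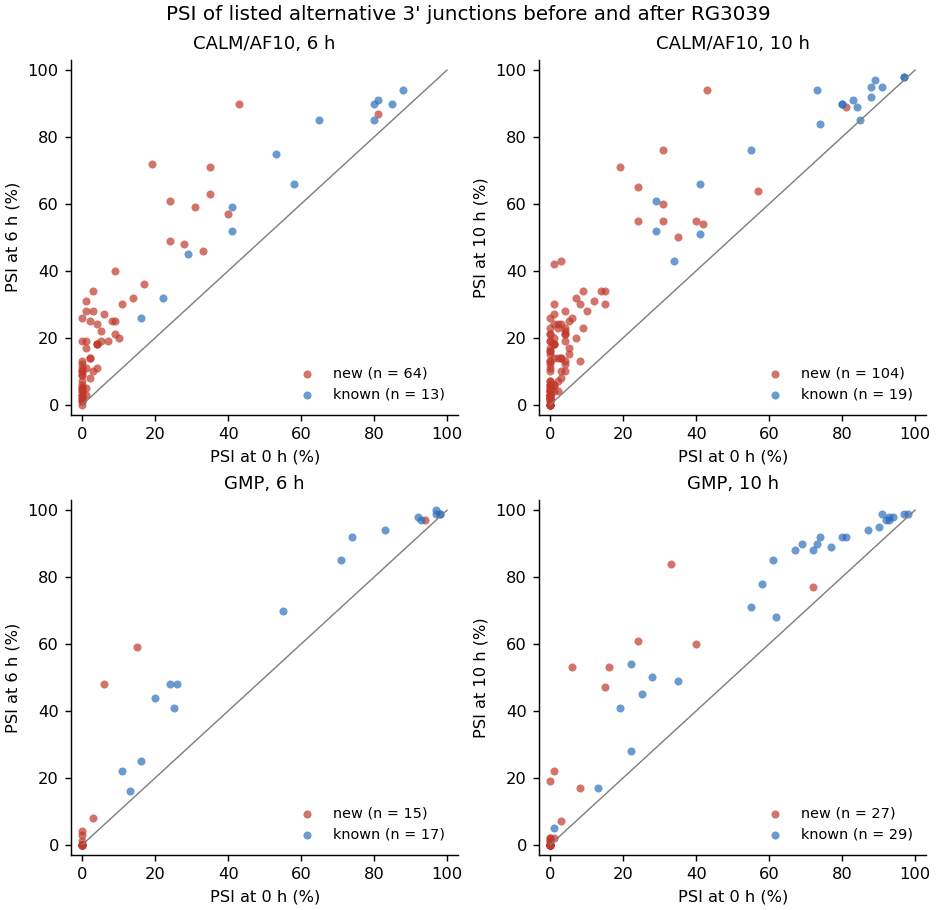
Mean PSI in percent at 0 h (horizontal) and after treatment (vertical) of each listed alternative 3' junction, 1 panel per table; points are junctions, coloured by whether the authors mark them as new, and the line is equality. New CALM/AF10 junctions crowd at the left edge, with a median of 2% at 0 h and 18.5% at 6 h, whereas new GMP junctions have medians of 0% before and 0% after 6 h.

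The authors mark each junction as new or known. New junctions made up 64 of 77 (83.1%) and 104 of 123 (84.6%) in CALM/AF10 cells at 6 h and 10 h, and 15 of 32 (46.9%) and 27 of 56 (48.2%) in GMP. The alternative 5' junctions of the same tables were new in 74.2%, 68.1%, 58.5% and 47.4%. The new CALM/AF10 junctions had a median PSI of 2% at 0 h and 18.5% at 6 h, and of 1% and 15.5% at 10 h, while the known ones had 58% and 75%, and 80% and 90%. In GMP the new junctions stood at 0% and 0% at 6 h and 0% and 2% at 10 h, and the known ones at 71% and 85%, and 72% and 89%. New in the authors' table does not mean absent from every annotation, since 49 of 120 new introns of CALM/AF10 cells (40.8%) and 8 of 34 of GMP (23.5%) are in GENCODE M21.

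Beyond the shared introns, the junctions with the widest PSI differences in CALM/AF10 cells lay in Mthfd2l and Iqsec2. Mthfd2l, a mitochondrial enzyme of folate metabolism, had a mean PSI of 43% at 0 h, 90% at 6 h and 94% at 10 h, with mean counts of 9, 49 and 75. Iqsec2, an exchange factor of ARF GTPases, had 31% at 0 h and 76% at 10 h. Cerk, the ceramide kinase, had 1%, 28% and 42%, at an acceptor 18889 bases upstream of the competing one. Mcu, which forms the channel of the calcium uniporter in mitochondria, was listed with 3 acceptors of the same donor. One ran from 1% to 31% at 6 h, at an acceptor 26521 bases upstream, and the other two from 0% to 26% and from 0% to 13% at 10 h, at acceptors 112021 and 26580 bases upstream. All 3 lie well inside the intron, and since a table lists only called junctions, a missing row does not show that an acceptor was unused at that time.

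Of the remaining named junctions, some started from zero and others were already common. Jdp2, a basic leucine zipper partner of Jun, had 0%, 26% and 19% at 0, 6 and 10 h. Spin1, a reader of histone methylation, had 0%, 13% and 17%, and Rhbdd1, a rhomboid protease, had 0% and 21%. Hs2st1, a heparan sulfate sulfotransferase, had 9% and 40% at an acceptor just 3 bases from the competing one. Mmd had 24%, 49% and 55%, and the intron shared by Rbm12 and Cpne1 had 41%, 59% and 66%. Spi1, which encodes the myeloid transcription factor PU.1, had 81%, 87% and 89%, and Senp6, a SUMO protease, had 80% at 0 h and 90% at both later times. Btf3l4 had 81% and 91% in the 6 h table and 88% and 95% in the 10 h table, and among alternative 3' junctions listed at both times it was the one whose 0 h PSI differed between the tables. These last 3 were common before treatment, unlike Jdp2, Spin1 and Rhbdd1.

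The lists of splicing, cap binding and decay genes used here hold 2 member genes in CALM/AF10 cells, beside 3 in GMP. Srrt encodes ARS2, which binds the nuclear cap-binding complex, and its new junction, with predicted decay, had a mean PSI of 3%, 28% and 24%. Its acceptor lies 1234 bases upstream of the competing one. Upf2, a core factor of nonsense-mediated decay, had 4% and 12% at 10 h.

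In GMP the list members were Hnrnpc, Rbm39 and Hnrnpa2b1, all 3 with known junctions. Hnrnpc, which binds uridine tracts near acceptors, had a mean PSI of 25% at 0 h, 41% at 6 h and 45% at 10 h. Rbm39, a relative of U2AF, had 81% and 92% at 10 h, and Hnrnpa2b1 had 1% and 5%. Other GMP members were named for their PSI. Luc7l, a protein of the U1 snRNP, had 24% and 48% at 6 h, and the 10 h table listed the same intron under another class with 57% and 91%. Srrm2, a spliceosomal scaffold, had 93% at 0 h and 97% at both later times. A different Srrm2 intron was listed in CALM/AF10 cells at 6 h with 85% and 90%. The GMP tables listed that second intron too, under another class, with 82% and 91% at 6 h and 81% and 90% at 10 h. Rbmxl1, of the hnRNP G family, had 55%, 70% and 71%. The chromatin protein Setd5 had 74% and then 92% at both times. Apart from Hnrnpa2b1, these were sizeable forms in untreated GMP already.

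Outside RNA-binding proteins, Birc3, a ubiquitin ligase of NF-kB signalling, had 16% and 53% at 10 h, and Rabgap1l, a Rab GTPase-activating protein, had 22% and 54%. Rrbp1, a ribosome-binding protein of the endoplasmic reticulum, had 20% and 44%, and Wbp1l had 26% and 48%. At the other end, Actn4, an actin crosslinker, had 97%, 100% and 99%, and the ADP/ATP carrier Slc25a5 had 98% and 99%. Ctsg, the granule protease cathepsin G, had 0% at every time with mean counts of 0, 25 and 31, and Pabpc1, the cytoplasmic poly(A)-binding protein, had 0% with mean counts of 0 and 34. Serbp1, an mRNA-binding protein, had 0% and 1%. The Ctsg donor was listed with 4 acceptors, 3 of them in GMP at 0% to 2% and 1 in CALM/AF10 cells at 97% and 98%. Of the 45 junctions taken by the naming rule, 6 had no gene name beyond a clone or none at all and are counted but not named.

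Within a cell type, 53 introns were listed at both times in CALM/AF10 cells, which is 68.8% of those at 6 h and 43.1% of those at 10 h. Of these 53, 34 had a higher PSI at 10 h than at 6 h, 13 a lower one and 6 the same, with medians of 19% and 21%. In GMP 15 introns were listed at both times (46.9% and 26.8%), with 4 higher, 4 lower and 7 equal. Both times share the 0 h samples, and the differences between 6 h and 10 h ran from -7 to 14 points in CALM/AF10 cells and from -12 to 5 points in GMP.

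The acceptors of the CALM/AF10 junctions lay far upstream of the competing ones, and those of GMP did not. An acceptor 1000 or more bases upstream was seen in 62 of 77 junctions (80.5%) and 93 of 123 (75.6%) in CALM/AF10 cells and in 6 of 32 (18.8%) and 12 of 56 (21.4%) in GMP. The median shift was 7818 and 6698 bases upstream in CALM/AF10 cells. In GMP 16 of 32 (50%) and 32 of 56 (57.1%) lay 31 or more bases downstream, against 4 and 14 in CALM/AF10 cells. The competing introns were long in CALM/AF10 cells, with medians of 17530 and 12700 bases, and short in GMP, with 783 and 1058 bases. A far upstream acceptor needs a long intron, so the shift and the intron length are not separate observations. The position was read from coordinates and not from the calls, but the rule still set which junctions are listed, so no test is given.

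**Figure D3:**
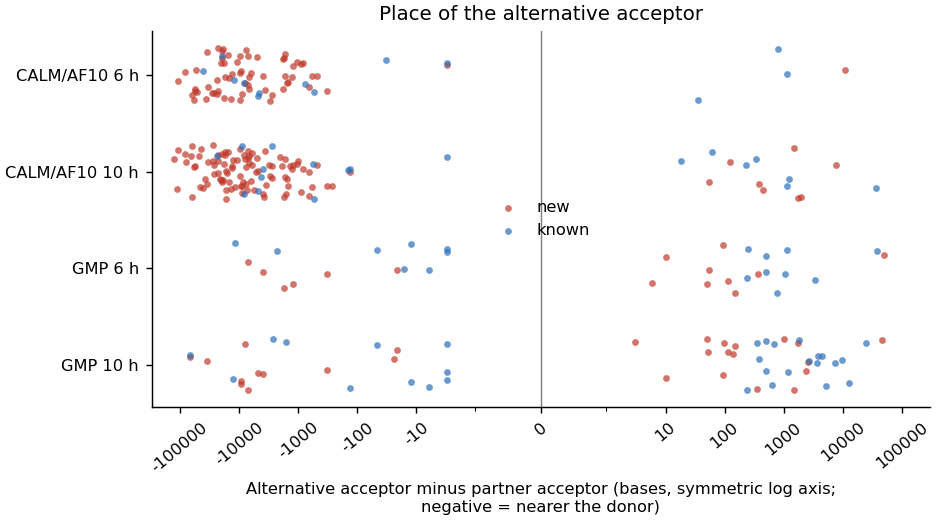
Distance in bases from the competing acceptor to the alternative one, negative when the alternative acceptor lies nearer the donor, on a symmetric log axis, for every listed alternative 3' junction of each table. CALM/AF10 points gather beyond 1000 bases upstream (80.5% and 75.6%), and GMP points spread on both sides of zero with 18.8% and 21.4% beyond that distance.

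A canonical intron named by the authors for the junction was a first intron of some M21 transcript for 57 of 74 junctions (77%) and 97 of 117 (82.9%) in CALM/AF10 cells. In GMP it was so for 15 of 21 (71.4%) and 23 of 40 (57.5%). This count takes every canonical intron named, not the one with the same donor alone. The alternative 5' junctions of the same tables had 81.8%, 82.2%, 82.2% and 77.3%, so first introns are not particular to alternative acceptors. When a first intron of every transcript was asked for, the alternative 3' shares were 71.6%, 77.8%, 66.7% and 42.5%. In basic protein-coding transcripts of M21, first introns make up 15.1% of 209725 introns and 36.2% of the 21178 that are 10000 bases or longer. That set of transcripts is narrower than the one used for the junctions, so the shares are not like measures.

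Where M21 holds them, far upstream acceptors of CALM/AF10 cells often opened a last exon. Of the 110 distinct ones 48 are present in M21, and 28 of these (58.3%) lead only to last exons of annotated transcripts. What follows the others is not known. Of all 76 alternative junctions of CALM/AF10 cells in M21, 35 (46.1%) do so. Among the competing acceptors of all CALM/AF10 junctions, 8 of 136 (5.88%) do. In GMP 2 of 11 far upstream ones (18.2%) and 8 of 51 competing ones (15.7%) do. The poly(A) signal words AATAAA or ATTAAA, searched on the transcript strand in the last 50 bases, occurred in 25 of 50 transcripts that end after a far upstream acceptor (50%), in 13 of 27 that end after another alternative acceptor (48.1%) and in 33.8% of all M21 transcripts. A match in that window is a description of the annotated ends and says nothing of whether a polyadenylation site was used. For 67 of 147 CALM/AF10 introns (45.6%) and 23 of 73 GMP introns (31.5%) the acceptor is not an acceptor in M21. Of all 192 donors, 15 were joined to several listed acceptors, 35 junctions in all, with 4 acceptors in Ctsg and 3 each in Mcu, Rps6ka3 and Sar1a.

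Decay was predicted by the authors' tables for 32 of the 68 junctions called true or false (47.1%) and 46 of 109 (42.2%) in CALM/AF10 cells and for 3 of 27 (11.1%) and 9 of 49 (18.4%) in GMP. None of the known junctions carried the prediction, with 0 of 12, 0 of 16, 0 of 17 and 0 of 29. The share also differed with the place of the donor. Among distinct introns with a donor inside the coding sequence, 54 of 65 (83.1%) were predicted to decay in CALM/AF10 cells and 10 of 27 (37%) in GMP. With a donor before the start codon it was 0 of 51 and 0 of 13. Donors before the start codon made up 59 of 147 introns (40.1%) in CALM/AF10 cells and 14 of 73 (19.2%) in GMP. The donor could not be placed for 18 of the 147 and 31 of the 73, and of those placed 59 of 129 (45.7%) and 14 of 42 (33.3%) lay before the start codon. These shares were not tested against each other.

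Stop codons were read here from M21 transcripts and are not the authors' own. For 24 of the 56 CALM/AF10 introns with predicted decay the frame could be read this way. Of these, 21 met a stop codon, 13 of them in the last exon and 8 before it. In the 8 readable introns without the prediction, 7 met a stop codon and all 7 were in the last exon. For GMP, 3 with the prediction had 1 in the last exon and 2 before it, and 9 without it had 6 and 3. The textbook signal for nonsense-mediated decay is an exon junction after the stop codon, and a stop codon in a last exon has none. The authors' prediction and the annotated exon order thus do not coincide for introns with predicted decay and a stop codon in the last exon.

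A small set of junctions moved the acceptor by 30 bases or fewer. There were 16 such introns, 4 listed in CALM/AF10 cells alone and 12 in GMP alone, and 14 of the shifts were multiples of 3, which keep the reading frame. Of the 7 whose acceptor lies 3 bases upstream, 6 have a printed sequence in M21, and in all 6 the added triplet ends in AG, the last bases of the intron when the competing acceptor is used. The 3 shown were picked after their values were seen, because they sit in abundant myeloid or membrane genes.
Fxyd5 alternative: ggaccagagaagCAGAAGCCACAGGAAGCC
Fxyd5 competing: ggaccagagaagAAGCCACAGGAAGCCAGA
S100a9 alternative: tctttagccttgAAGAGCAAGAAGATGGCC
S100a9 competing: tctttagccttgAGCAAGAAGATGGCCAAC
Ly6e alternative: cttcacccggagTAGGCTTCTTTGGCTTGC
Ly6e competing: cttcacccggagGCTTCTTTGGCTTGCGAA
Fxyd5, a regulator of the sodium pump, had a mean PSI of 22% at 0 h and 28% at 10 h in GMP, and a second Fxyd5 junction with its acceptor 12 bases upstream had 13%, 16% and 17%. Ly6e, a membrane antigen, had 62% and 68% in GMP. S100a9, a calcium-binding protein of neutrophils, had 85% before and after treatment in CALM/AF10 cells, with mean counts of 64085 and 68116. These 3 differed by 6 points or less before and after treatment. Of the others with an acceptor 3 bases upstream, Hs2st1 differed by 31 points and Gapt, from 65% to 85%, by 20 in CALM/AF10 cells at 6 h, and Actn4 and Ftl1 by 3 or less in GMP.

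At the gene level, host genes were fitted with all genes of their cell type in limma on log2(TPM + 1), and a gene was called at an adjusted p under 0.05. Of the 147 CALM/AF10 introns 136 had a single host in the gene table, 120 genes in all, and of the 73 GMP introns 64 had one, 57 genes in all. All 120 and 57 passed the filter of at least 1 TPM in 3 samples. In CALM/AF10 cells at 6 h 8 of 66 hosts were called higher and 14 lower, where 5.44% of all 12815 genes tested were called higher and 7.14% lower. At 10 h 21 of 100 were higher and 25 lower, beside 10.5% and 8.64% of all genes. In GMP at 6 h 16 of 26 were higher and 4 lower, beside 24.1% and 19.9% of 14246 genes, and at 10 h 20 of 44 and 11, beside 23.7% and 21.5%. These are the contrasts that chose the junctions, and calling a junction needs reads, so nothing is read from these counts. The median log2 change of the hosts was -0.04, 0.00, 0.29 and 0.13 in that order, beside -0.02, 0.01, -0.02 and -0.03 for all genes.

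Hosts can also be looked up in the cell type whose tables list no alternative 3' junction in them. That cell type took no part in choosing their junctions. A host may still be listed there under another class, and none listed below means no alternative 3' junction. Of 109 hosts of CALM/AF10 junctions with none listed in GMP, 25 (22.9%) were higher and 33 (30.3%) lower in GMP at 6 h, and 22 (20.2%) and 28 (25.7%) at 10 h. Of 46 hosts of GMP junctions with none listed in CALM/AF10 cells, 0 were higher and 6 (13%) lower there at 6 h by limma at the adjusted p, and 12 (26.1%) and 5 (10.9%) at 10 h. At an unadjusted p under 0.05, 2 of these 46 were higher at 6 h. Among all genes, 24.1% were higher and 19.9% lower in GMP at 6 h and 23.7% and 21.5% at 10 h, and in CALM/AF10 cells 5.44% and 7.14% at 6 h and 10.5% and 8.64% at 10 h. The lower shares of these hosts lay above that of all genes, some by little (10.9% beside 8.64% and 25.7% beside 21.5%). Their higher shares lay below it, also by little in GMP at 6 h (22.9% beside 24.1%). The GMP hosts in CALM/AF10 cells at 10 h were the exception. No general statement about these hosts is read from the counts. Hosts were listed only where a junction had reads, so all genes are not a matched background. These differences were not tested.

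Single hosts went in either direction. Zbtb18 was at 69.3, 98.9 and 79.8 TPM in the 3 untreated CALM/AF10 samples, at 223, 231 and 197 TPM at 6 h and at 239, 240 and 253 TPM at 10 h. In GMP it was at 93.8, 115 and 94.7 TPM, then 269, 353 and 325 TPM, then 277, 273 and 251 TPM. Every treated sample of both cell types lay above every untreated one. On the log2(TPM + 1) scale it rose by 1.39 ± 0.11 (SE) at 6 h (limma adjusted p = 6.95e-05) and 1.56 ± 0.11 at 10 h (2.15e-05) in CALM/AF10 cells, and by 1.63 ± 0.11 (5.38e-06) and 1.40 ± 0.11 (1.13e-05) in GMP.

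Mthfd2l rose as well, from a low level. It was at 2.13, 1.55 and 1.41 TPM in untreated CALM/AF10 cells, at 5.27, 4.61 and 5.43 TPM at 6 h and at 8.32, 7.89 and 5.24 TPM at 10 h, with no overlap between treated and untreated samples. The change was 1.19 ± 0.16 at 6 h (limma adjusted p = 0.00132) and 1.58 ± 0.16 at 10 h (0.000181). In GMP, whose tables list no Mthfd2l junction of this class, the gene rose by 1.36 (limma adjusted p = 0.000612) and 1.84 (8.99e-05).

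Mcu fell the most of the hosts described here. Its level was 12.9, 11.7 and 12.9 TPM in untreated CALM/AF10 cells, 2.13, 2.00 and 1.70 TPM at 6 h and 1.69, 1.68 and 1.77 TPM at 10 h. The groups did not overlap, and it fell by 2.20 ± 0.09 on the log2 scale at 6 h (limma adjusted p = 1.18e-06) and by 2.31 ± 0.09 at 10 h (6.25e-07). In GMP, where no Mcu junction of this class is listed, it went from 21.9, 23.3 and 19.2 TPM to 10.5, 10.1 and 11.3 TPM and then 6.14, 7.41 and 6.51 TPM. That was a fall by 0.94 ± 0.10 (limma adjusted p = 7.12e-05) and by 1.55 ± 0.10 (3.11e-06), without overlap.

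Iqsec2 and Srrt, both with predicted decay, were lower in treated CALM/AF10 cells too. Iqsec2 was at 5.89, 5.98 and 5.85 TPM at 0 h, at 1.39, 1.25 and 1.46 TPM at 6 h and at 1.35, 1.29 and 1.35 TPM at 10 h. It fell by 1.55 ± 0.08 (limma adjusted p = 5.97e-06) and by 1.57 ± 0.08 (4.47e-06), and in GMP by 0.73 (0.00302) and 1.41 (5.54e-05). Srrt was at 73.7, 78.3 and 81.1 TPM at 0 h, at 37.9, 43.2 and 43.3 TPM at 6 h and at 46.9, 45.4 and 49.7 TPM at 10 h. It fell by 0.89 ± 0.06 (limma adjusted p = 3.48e-05) and by 0.70 ± 0.06 (9.8e-05), and in GMP by 0.33 (0.00745) at 6 h, while at 10 h its change was 0.07 (0.52). Untreated and treated CALM/AF10 samples of both genes were separate.

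Of hosts with predicted decay in CALM/AF10 cells, 2 of 28 were higher and 9 lower at 6 h (5.44% and 7.14% of all genes). At 10 h 5 of 41 were higher and 15 lower (10.5% and 8.64%). In GMP it was 1 and 0 of 3 at 6 h (24.1% and 19.9%) and 3 and 3 of 8 at 10 h (23.7% and 21.5%). These contrasts chose the junctions, so nothing is read from the counts. Among the hosts described next, a high PSI of a junction with predicted decay did not go with one gene level. Cerk, with such a junction in CALM/AF10 cells, had changes of 0.01 and 0.05 there (limma adjusted p = 0.941 and 0.657), and fell by 0.80 (4.11e-05) and 0.68 (9.72e-05) in GMP, whose tables list no alternative 3' junction of it. Rps6ka3 had changes of -0.32 (limma adjusted p = 0.124) and -0.46 ± 0.12 (0.0261) in CALM/AF10 cells and of 0.07 and 0.08 in GMP (0.645 and 0.614). Its call at 10 h was lost without any of 4 single samples, with adjusted p of 0.0873 and 0.0915 without untreated sample 1 or 3 in column order and 0.0571 and 0.0805 without 10 h sample 2 or 3. Cmtm7 fell by 0.30 (limma adjusted p = 0.00651) and 0.24 (0.0142) in CALM/AF10 cells and by 0.60 (4.38e-05) and 0.35 (0.00102) in GMP, and the CALM/AF10 call at 10 h was lost without untreated sample 3 (0.0508). Tbc1d2b changed past the threshold at none of the 4 comparisons, with values of 0.06, 0.29, 0.09 and 0.16, but its adjusted p at 10 h in CALM/AF10 cells went from 0.0607 to 0.0052 without 10 h sample 3.

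**Figure D4:**
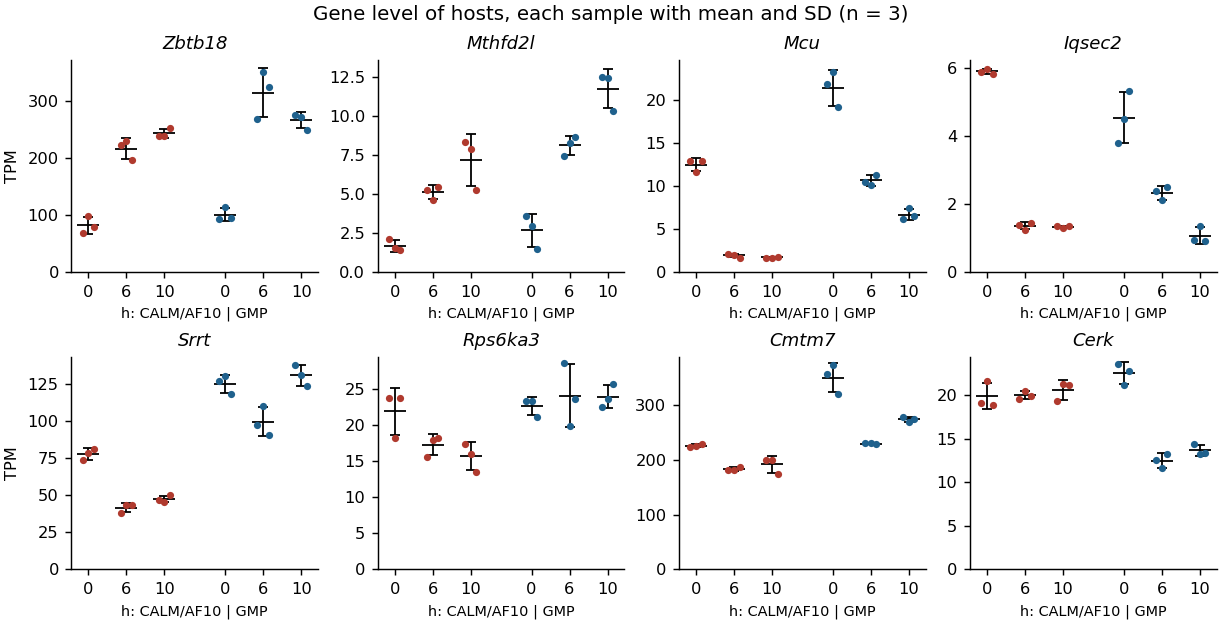
Gene level in TPM of 8 host genes in each of the 3 samples per group, for CALM/AF10 cells (red) and GMP (blue) at 0, 6 and 10 h; points are samples, and bars are the mean and SD of 3 samples. Zbtb18 and Mthfd2l lie higher in every treated sample, Mcu and Iqsec2 lower.

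Rhbdd1 fell by 0.73 (limma adjusted p = 0.00131) and 0.93 (0.000226) in CALM/AF10 cells, with changes of -0.04 and -0.23 in GMP that were not called. Pak2 rose in GMP by 0.48 (limma adjusted p = 0.000212) and 0.53 (0.000106) and had changes of 0.02 and 0.00 in CALM/AF10 cells. Ddx39b rose in GMP by 0.34 (limma adjusted p = 0.000542) and 0.40 (0.000192) and in CALM/AF10 cells at 10 h by 0.46 (0.000959). Rbmxl1 rose in GMP by 0.68 (limma adjusted p = 2.97e-05) and 0.61 (5.11e-05), and Ctsg fell there by 0.76 (4.18e-06) and 0.79 (2.55e-06). The GMP hosts Hnrnpc, Wbp1l and Rrbp1 were called in neither cell type by limma.

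The proteins that recognise the 3' splice site were measured at the gene level through fixed lists, whose counts stand beside the shares of all genes called that are given above. Of 25 genes for 3' splice site recognition, 0 were called in CALM/AF10 cells at 6 h in either direction (5.44% of all genes higher, 7.14% lower). At 10 h 7 were higher and 0 lower (10.5% and 8.64%). In GMP 11 were higher and 4 lower at 6 h (24.1% and 19.9%) and 13 and 2 at 10 h (23.7% and 21.5%). At an unadjusted p under 0.05 in limma, 2 were higher and 2 lower in CALM/AF10 cells at 6 h and 0 lower at 10 h. Their median log2 change was -0.01, 0.11, 0.23 and 0.29. Rbm17, the splicing factor SPF45, rose in GMP from a mean of 71.7 ± 2.5 (SD, n = 3) to 107 ± 3.5 and 112 ± 4.0 TPM, a change of 0.57 (limma adjusted p = 3.15e-05) and 0.63 (1.52e-05). The U2 snRNP proteins Sf3a3 and Sf3b3 rose in GMP by 0.43 and 0.64, and by 0.41 and 0.46. Rbm39 went the other way in GMP, from 237 ± 21 to 153 ± 5.9 and 167.4 ± 7.1 TPM, where it fell by 0.62 (limma adjusted p = 0.000104) and 0.50 (0.000374). Of these 4 genes none was called in CALM/AF10 cells, although Sf3b3 at 10 h missed the threshold by little (limma adjusted p = 0.0501) and passed it under 3 other settings. The CALM/AF10 count of 7 at 10 h ran from 3 to 8 over the alternatives, and the GMP count of 4 lower at 6 h from 1 to 7.

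Of 10 genes in the list of second step splicing factors, 0 were called at 6 h in CALM/AF10 cells (5.44% of all genes higher, 7.14% lower). At 10 h 1 was higher (10.5% of all genes). In GMP 2 were higher and 4 lower at 6 h (24.1% and 19.9%) and 3 and 4 at 10 h (23.7% and 21.5%). The list is not limited to genes that act in that step alone. Unadjusted, 1 was higher and 0 lower in CALM/AF10 cells at either time. Cwc22, a partner of the exon junction complex, rose in GMP by 1.20 (limma adjusted p = 2.1e-05) and 1.22 (1.65e-05), from 15.7 ± 1.5 to 37.4 ± 5.0 and 37.6 ± 1.3 TPM. Slu7, which positions the acceptor, fell in GMP by 0.42 (limma adjusted p = 0.00663) and 0.58 (0.00112), and Sde2 fell by 0.46 (0.00145) and 0.48 (0.00106). Prpf8, at the core of the spliceosome, rose in GMP by 0.18 (limma adjusted p = 0.0116) and 0.28 (0.00109), and its 6 h call was lost with quantile normalization (0.166). In CALM/AF10 cells its change was 0.03 at 6 h (limma adjusted p = 0.849) and 0.25 at 10 h (0.0281). The latter call was lost under 4 other settings.

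Of 28 hnRNP and SR proteins, 8 were lower and 0 higher in CALM/AF10 cells at 6 h (7.14% and 5.44% of all genes). At 10 h 2 were higher and 3 lower (10.5% and 8.64%). In GMP 9 were higher and 8 lower at 6 h (24.1% and 19.9%) and 11 and 7 at 10 h (23.7% and 21.5%). Unadjusted, 2 were higher in CALM/AF10 cells at 6 h. The count of 8 is not firm, as it ran from 0 to 9 over the alternatives. Clk1, the kinase of SR proteins, fell in GMP from 56.7 ± 6.0 to 15.4 ± 2.4 and 19.0 ± 0.49 TPM, by 1.82 (limma adjusted p = 3.81e-06) and 1.52 (9.07e-06). Srsf5 fell in GMP by 0.30 (limma adjusted p = 0.00532) and 0.64 (5.44e-05), while Srsf9 rose by 0.51 (0.000853) and 0.70 (0.000116) and Srsf1 by 0.57 at 10 h (0.00017).

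Dcps, the target of RG3039, was at 15.4 ± 1.1 TPM in untreated CALM/AF10 cells, 17.7 ± 1.2 at 6 h and 18.8 ± 0.95 at 10 h. Its change was 0.18 (limma adjusted p = 0.132) and 0.27 (0.0255), and the latter call was lost without any of 4 single samples, with adjusted p of 0.083 and 0.087 without untreated sample 1 or 3 and 0.0525 and 0.0715 without 10 h sample 2 or 3. In GMP it was at 45.0 ± 2.7, 44.0 ± 10.6 and 51.6 ± 0.52 TPM and was not called (limma adjusted p = 0.767 and 0.271), though 1 other setting called it at each time, in opposite directions of change. Of all 8 cap binding genes, 0 were higher and 1 lower in CALM/AF10 cells at 6 h (5.44% and 7.14% of all genes). At 10 h 1 was higher and 2 were lower (10.5% and 8.64%). In GMP 3 were higher and 2 lower at 6 h (24.1% and 19.9%) and 4 and 0 at 10 h (23.7% and 21.5%). Unadjusted, 1 was higher in CALM/AF10 cells at 6 h and 0 lower in GMP at 10 h. Ncbp1, the large subunit of the nuclear cap-binding complex, rose in GMP by 0.49 (limma adjusted p = 0.000623) and 0.51 (0.000426).

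Of 17 genes of nonsense-mediated decay, 0 were higher and 1 lower in CALM/AF10 cells at 6 h (5.44% and 7.14% of all genes). At 10 h 1 was higher and 0 were lower (10.5% and 8.64%). In GMP 8 were higher and 4 lower at 6 h (24.1% and 19.9%) and 7 and 2 at 10 h (23.7% and 21.5%). Unadjusted, 0 were higher in CALM/AF10 cells at 6 h and 0 lower at 10 h. Smg5, which recruits decay enzymes, rose in GMP by 0.47 at both times (limma adjusted p = 9.54e-05 and 8.35e-05), and Magohb of the exon junction complex by 1.04 (0.000179) and 0.91 (0.000365). Pnrc2, an adaptor to decapping, fell in GMP by 0.84 (limma adjusted p = 6.47e-05) and 0.72 (0.000136). Rnps1 rose in GMP by 0.53 (limma adjusted p = 6.9e-05) and 0.44 (0.000195) and in CALM/AF10 cells at 10 h by 0.28 (0.00186).

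The untreated lines show whether the listed junctions belong to transcripts present without the drug. Where M21 holds both forms, the share of their TPM in transcripts with the alternative junction was computed in each of the 12 samples, which took no part in choosing the junctions. For 53 CALM/AF10 junctions the median share was 38% in CALM/AF10 #1, 42.1% in CALM/AF10 #2, 37.5% in MLL/AF9 #1 and 44.5% in MLL/AF9 #2, and 46, 46, 45 and 48 of them reached 5%. For the 38 of these marked new it was 25%, 26.9%, 29.6% and 36.3%. Junctions with both forms in M21 were commoner than most, with a median 0 h PSI of 24% for the 53 and 12% for the 38. Over all listed CALM/AF10 junctions that median was 4% at 6 h and 2% at 10 h, and over all new ones 2% and 1%. The shares thus do not stand for new junctions in general. For 28 GMP junctions the medians were 42.9%, 43.5%, 43.7% and 41.2%. Most annotated forms were thus assigned reads in lines that had no drug, although transcript shares are estimates and are not PSI.

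Zbtb18 had shares of 31.8%, 9.07% and 56.5% in CALM/AF10 #1, 46.4%, 39.4% and 43.2% in CALM/AF10 #2, 34.2%, 32.6% and 25% in MLL/AF9 #1 and 68.3%, 71.1% and 75.8% in MLL/AF9 #2. The MLL/AF9 #2 samples lay above all others, and the CALM/AF10 #1 samples spread widely. Rps6ka3 had 0%, 22.6% and 0%, then 38.2%, 26.9% and 32.8%, then 42.1%, 51.5% and 42%, then 10.2%, 56.4% and 48.6% in the same order of lines. The first 3 of these lines did not overlap each other, whereas the MLL/AF9 #2 samples spread over the range of the rest. Mthfd2l had 54.6% to 65.4% in CALM/AF10 #1 and 87.9% to 96.5% in MLL/AF9 #2; both forms were low, and no sample reached 3 TPM for either.

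Among the other junctions with a pair in the lines, Spi1 ranged from 25.2% to 38.9%, Senp6 from 35.4% to 47.6%, Tmem80 from 18.3% to 57.9%, Mrpl33 from 0.641% to 3.52% and Ddx39b from 85.9% to 98.7% over the 12 samples. Mrpl33 had a minor and Ddx39b a major share, as they had by PSI in the time course. By PSI in untreated CALM/AF10 cells the listed form of Spi1 and Senp6 was the major one. By transcript share it was the minor one in every line sample. The intron shared by Rbm12 and Cpne1 was a minor form by PSI at 0 h and had shares of 84.7% to 94.9% in the lines. PSI and transcript share have different denominators, so a change of major form between the cells and the lines cannot be read from these values. Across the 53 junctions, the 0 h PSI in CALM/AF10 cells and the mean share in the lines had a Pearson correlation of 0.599 and a Spearman correlation of 0.627, as a description over junctions that share the same libraries.

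**Figure D5:**
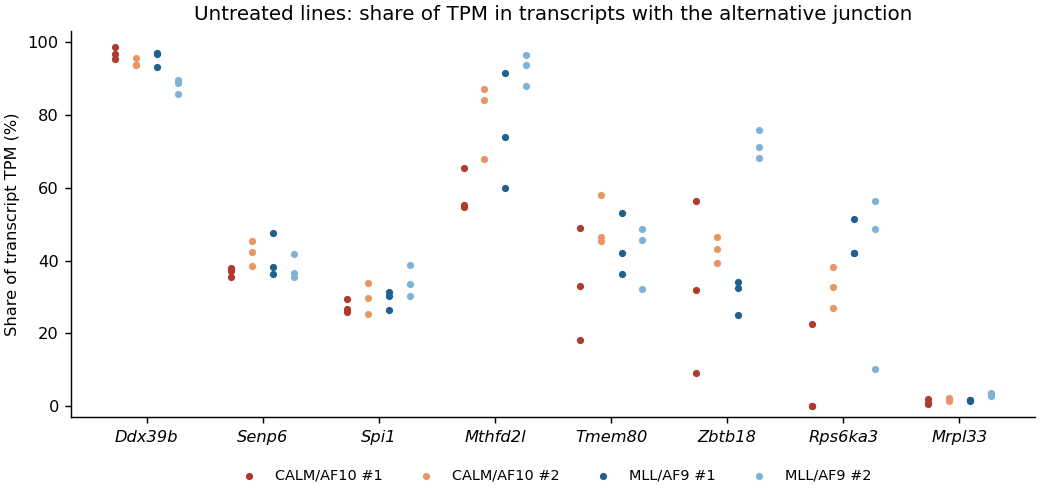
Share in percent of transcript TPM in transcripts that hold the alternative junction, for named junctions with a pair in GENCODE M21, in the 3 samples of each untreated AML line; points are samples. Zbtb18 is highest in MLL/AF9 #2 at 68.3% to 75.8%, Ddx39b lies at 85.9% or more and Mrpl33 at 3.52% or less in every sample.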

How the data were processed

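Total RNA was turned into libraries with an Ovation kit for mouse, per the labels' protocols, and STAR and mm10 are named in the submitters' processing notes. The authors quantified junctions without predetermined splicing models, per the labels. The authors deposited 4 junction tables that give for each junction the group means of PSI in percent, a q-value, a log2 ratio and an averaged raw count. This average was rounded by the authors over each group and is treated here as a score. Over 764 rows with PSI from 10 to 90 the deposited log2 ratio matched the log2 ratio of the PSI odds with a median difference of 0.0257. The largest deposited q-value is 0.0494 and every ratio is positive, so only rises are listed. The authors deposited TPM per gene for the time course and TPM per transcript for the lines. The tool that made them is not given in the sources used here.

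Introns are given 1-based on mm10 (GRCm38). The competing junction is the canonical junction with the same donor that the authors' table names, and both were looked up in GENCODE M21 (141862 transcripts). Each time-course table was fitted on its own with limma 3.58.1 in R 4.3.3 with a mean-variance trend on log2(TPM + 1), 9 samples per fit, keeping genes with at least 1 TPM in at least 3 samples, with Benjamini-Hochberg adjustment over all genes and a threshold of 0.05. The fit was tested on simulated data. The time-course columns carry a group but no replicate number.

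Members, lists and tests were chosen with earlier results of these data known. The text names junctions listed in both cell types, in each table the 6 largest PSI differences and 4 smallest q-values (ties broken by the log2 ratio), up to 8 per cell type listed at both times by the PSI at 10 h, and members in genes of the 5 lists. List genes are named where called in 2 or more of the 4 contrasts, up to 4 a list. The column that names aberrant junctions holds an identifier, so the authors' mark of a new junction was used in its place. Alternatives covered the pseudocount, the filter, scaling, the groups fitted and single samples left out.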

Additional observations from a re-analysis of the deposited data

Results flagged for a closer look

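For 9 genes every treated sample lay on one side of the untreated samples in CALM/AF10 cells and on the opposite side in GMP at the same time; the difference between the cell types was not tested. At 6 h the log2 changes in CALM/AF10 cells and in GMP were -0.06 and 0.22 for Actn4, -0.14 and 0.42 for Phax, -0.08 and 0.28 for Serbp1, -0.23 and 0.47 for Smg5, -0.19 and 0.25 for Srsf1, -0.24 and 0.51 for Srsf9 and -0.13 and 0.16 for Wbp1l. At 10 h they were -0.27 and 0.29 for Phax, 0.21 and -0.19 for Rrbp1, 0.16 and -0.12 for Spin1 and -0.15 and 0.19 for Wbp1l. This was 7 of 56 named genes at 6 h and 4 of 56 at 10 h, beside 9.36% and 8.54% of all 11672 genes tested in both cell types, so the count says nothing particular of these genes. Phax and Wbp1l did so at both times, which share the untreated samples.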

How the results depend on the processing

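Junction values cannot be tested, since the tables hold group means of called rises. Keeping a PSI difference of at least 10 points left 70 junctions in CALM/AF10 cells at 10 h, 11 in GMP at 6 h and 24 in GMP at 10 h. It moved the far upstream share of CALM/AF10 cells at 10 h to 85.71% and the new share of GMP to 18.18% at 6 h and 33.33% at 10 h, so the mix of new and known junctions in GMP depends on very small PSI differences. Keeping mean counts of at least 20 moved that far upstream share to 67.05%. With no filter on low values 5 hosts were higher in CALM/AF10 cells at 6 h. Leaving out each sample in turn gave 6 to 7 hosts higher and 10 to 13 lower in CALM/AF10 cells at 6 h, 15 to 20 and 19 to 22 at 10 h, 14 to 15 and 3 to 4 in GMP at 6 h and 17 to 20 and 10 to 11 at 10 h. Of 224 values of 56 named genes, 54 changed their call under at least 1 of 12 settings, 27 lost and 27 gained, and 0 reversed while called. Centring on the median gene turned the split of calls over all genes in CALM/AF10 cells at 6 h from 697 higher and 915 lower to 1031 and 731, and in GMP at 10 h from 3374 and 3057 to 3820 and 2711. The cause was not tested. The settings on novelty, far upstream shares and first introns were chosen after seeing the data. No paired analysis was possible because the columns carry no replicate number and the junction tables hold group means.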
